A study of Mus musculus with 12 samples.

Results

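The miR-181 family was followed through 7 mature strands, the guide strands mmu-miR-181a-5p, mmu-miR-181b-5p, mmu-miR-181c-5p and mmu-miR-181d-5p and the passenger strands mmu-miR-181a-1-3p, mmu-miR-181a-2-3p and mmu-miR-181c-3p. They were taken by name from a table of 1908 mouse miRNAs, in which all 7 were found. The table holds small-RNA counts from the hippocampi of 12 male C57BL/6 mice aged 3 months, 6 with a homozygous knockout of Gld2 (GLD2KO) and 6 wild type (WT), littermates from matings of Gld2 heterozygotes, with 1 library for each mouse. Gld2 is the gene of a nucleotidyltransferase that lengthens RNA 3′ ends with adenosine, and the study asked what part it plays in adding untemplated nucleotides to miRNAs. Neither the added nucleotides nor the Gld2 mRNA is in the count table, so the genotypes stand as labelled and the comparison here is of relative abundance.

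A miRNA hairpin gives rise to a pair of strands. The guide strand is loaded into an Argonaute protein and pairs with mRNAs mainly through its seed, the stretch from base 2 to base 8, and the passenger strand is mostly discarded. The miR-181 family is conserved among vertebrates and is known in mouse thymocytes, where miR-181a tunes the sensitivity of the T cell receptor, and in neurons, where miR-181a has been described at synapses as a regulator of AMPA receptor levels.

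The mature sequences are shown because they set which members can stand in for each other at a target, and which could be mistaken for each other in counting. They are given 5′ to 3′ from RefSeq (GRCm38.p6), in which all 7 members were matched, with the seed in capitals.
mmu-miR-181a-5p: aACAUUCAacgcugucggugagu
mmu-miR-181b-5p: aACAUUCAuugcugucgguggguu
mmu-miR-181c-5p: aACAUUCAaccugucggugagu
mmu-miR-181d-5p: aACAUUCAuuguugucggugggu
mmu-miR-181a-1-3p: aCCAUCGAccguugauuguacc
mmu-miR-181a-2-3p: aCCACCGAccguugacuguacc
mmu-miR-181c-3p: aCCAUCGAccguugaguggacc
The 4 guide strands share the seed ACAUUCA, which no other of the 1679 mature mouse miRNAs in that table had. Positions are counted from 1 at the 5′ end, and the base of the first-named strand is written first. With that rule miR-181a-5p differed from miR-181b-5p by A9U, C10U and A21G and was 23 rather than 24 bases long. The only substitution between miR-181b-5p and miR-181d-5p was C12U. The edit distance between miR-181a-5p and miR-181c-5p was 1, as miR-181c-5p is 22 bases long and lacks 1 base of miR-181a-5p after the seed. Among the passenger strands, miR-181a-1-3p and miR-181c-3p share the seed CCAUCGA and differ by U16G and U19G. In contrast, miR-181a-1-3p differs from miR-181a-2-3p by U5C, inside the seed, and U16C.

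The family has 3 clusters of hairpins, which together encode it (GRCm38, GENCODE annotation). Mir181a-1 (chromosome 1, 137966455 to 137966541, plus strand) and Mir181b-1 (137966639 to 137966718) lie 97 bases apart in an intron of the non-coding transcript Gm4258, and overlap an exon of the lincRNA A430106G13Rik, Mir181a-1 in part and Mir181b-1 in full. Mir181a-2 (chromosome 2, 38852735 to 38852810, plus strand) and Mir181b-2 (38853830 to 38853918) lie 1019 bases apart, opposite an intron of Nr6a1, which encodes a nuclear receptor. Mir181c (chromosome 8, 84178873 to 84178961, minus strand) and Mir181d (84178716 to 84178787) lie 85 bases apart in an intron of Nanos3, a germ cell gene, on its strand. The sequences of miR-181a-5p and miR-181b-5p are the same from both of their hairpins, so their counts cannot be divided between chromosomes 1 and 2.

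Libraries held 2197915 to 2762035 counts in GLD2KO and 2254812 to 3761106 counts in WT. Levels are given as CPM (counts per 1000000 counts of a library, scaled by TMM), so a change common to every miRNA would not show, and in whole tissue fewer cells of a type and less RNA per cell cannot be told apart. Neuronal markers (miR-124-3p, miR-128-3p and miR-9-5p, 3 of 3 tested) summed to 132544 to 237249 CPM in GLD2KO libraries and 94222 to 336978 CPM in WT libraries. None of the 5 choroid plexus markers was at 0 in all libraries, and their sum was highest in GLD2KO replicate 6, at 15257 CPM. Of these markers 4 had a fold change, GLD2KO over WT, above 0 and 1 below. At an unadjusted p under 0.05 in edgeR stood 3 of the 5, beside 4.8% of all tested miRNAs, and 0 passed after adjustment.

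The family was abundant in these hippocampi and its guide strands made up nearly all of it. The 7 members took 2.47 ± 0.944% of all counts in GLD2KO and 2.09 ± 0.358% in WT (SD, n = 6 each). The passenger strands were 2.83 ± 1.31% of the family's counts in GLD2KO and 1.93 ± 0.833% in WT. By mean level over the 12 libraries, miR-181a-5p was the 17th most abundant miRNA at 14343 CPM, between miR-338-3p at 16166 CPM and let-7g-5p at 13407 CPM. The next member, miR-181b-5p, was at 4961 CPM, beside miR-129-2-3p at 5110 CPM and miR-23b-3p at 4943 CPM.

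Within each library the order of the members was nearly fixed. By counts, miR-181a-5p exceeded miR-181b-5p in 12 of 12 libraries, and miR-181b-5p exceeded miR-181d-5p in 12 of 12. The neighbours miR-181d-5p, at 1989 CPM, and miR-181c-5p, at 1970 CPM, had no fixed order, with miR-181d-5p ahead in 7 of 12 libraries. By mean level miR-181a-1-3p, at 376 CPM, and miR-181c-3p, at 143 CPM, came next. By counts miR-181a-1-3p was under miR-181c-5p in 12 of 12 libraries, and miR-181c-3p was under miR-181a-1-3p in 12 of 12. In GLD2KO replicate 1 the passenger strand miR-181a-1-3p, with 2306 counts, exceeded the guide strand miR-181d-5p, with 2000 counts. Ligation and size selection can favour some miRNAs over others, so this order is one of counts.

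Among the guide strands alone, miR-181a-5p held 62.9 ± 6.17% of counts in GLD2KO and 60.6 ± 4.27% in WT, and miR-181b-5p 20.9 ± 4.71% and 20.1 ± 3.84% (SD, n = 6 each). The share of miR-181c-5p was 7.63 ± 1.38% in GLD2KO and 9.69 ± 2.03% in WT. The share of miR-181d-5p was 2.01 to 12.7% in GLD2KO libraries, against 7.86 to 13.2% in WT libraries. Its lowest values were 2.01% in GLD2KO replicate 1 and 4.78% in GLD2KO replicate 5.

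**Figure D1:**
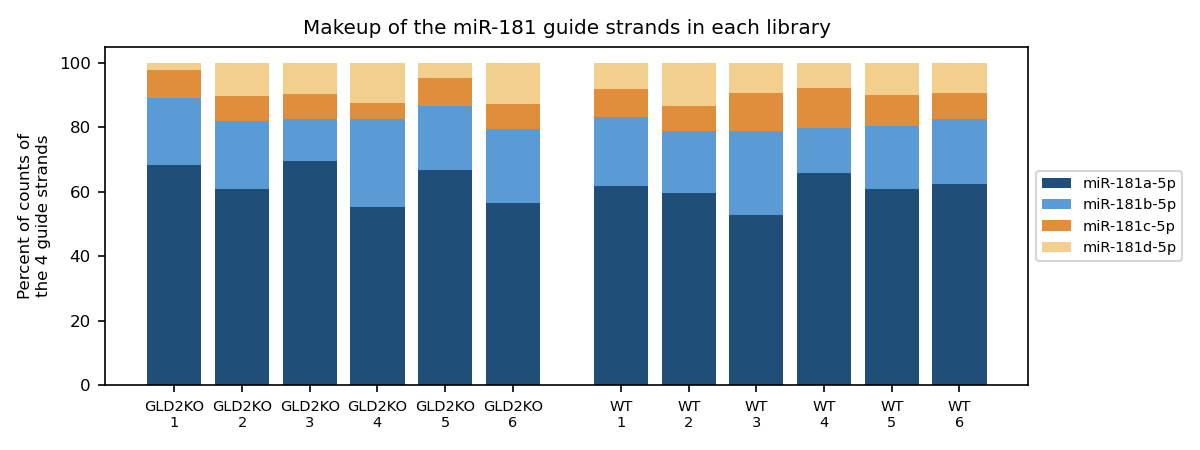
Stacked bars give the percent of guide strand counts held by each of the 4 guide strands (vertical axis) in each GLD2KO and WT library (horizontal axis). The miR-181a-5p segment is the tallest in every library, and the miR-181d-5p segment is thinnest in GLD2KO replicate 1, at 2.01%.

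No member passed the test of a genotype difference. Of the 7 members, 6 had enough counts to test, and 0 of these passed an adjusted p of 0.05 (edgeR quasi-likelihood test, Benjamini-Hochberg over all 521 miRNAs tested), as did 0% of all tested miRNAs. At an unadjusted p under 0.05 stood 0 of the 6 members and 4.8% of all tested miRNAs. Of the tested members 4 had a fold change above 0 and 2 below, with a median log2 fold change of 0.31, GLD2KO over WT, beside a median of 0.12 over all tested miRNAs, of which 306 lay above 0 and 215 below. For every tested member the values of the genotypes overlapped; over all tested miRNAs 0.576% did not.

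The main guide strand, miR-181a-5p, had a lowest, median and highest level of 8405, 10753 and 33250 CPM in GLD2KO, against 9987, 11545 and 19392 CPM in WT. The GLD2KO median lay below the WT median, and 2 GLD2KO libraries, replicates 1 and 4, lay above all WT libraries. The mean was 15829 ± 9713 CPM in GLD2KO and 12857 ± 3441 CPM in WT, a log2 fold change of 0.30, with a 95% confidence interval of -0.54 to 1.14 (edgeR adjusted p = 0.978). Without GLD2KO replicate 1 the log2 fold change was -0.07, so its sign rested on that library.

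The cluster partner miR-181b-5p, described in endothelium as a brake on inflammatory signalling, followed the same libraries. Its lowest, median and highest levels were 1960, 3496 and 10632 CPM in GLD2KO, against 2333, 3756 and 6725 CPM in WT. The highest values, 10632 and 10222 CPM, were again those of GLD2KO replicates 4 and 1. The log2 fold change was 0.32 (95% interval -0.64 to 1.28, edgeR adjusted p = 0.978), and 0.01 without GLD2KO replicate 1.

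The guide strands of the chromosome 8 cluster had fold changes just below 0. The levels of miR-181c-5p were 1148, 1380 and 4263 CPM (lowest, median and highest) in GLD2KO, against 1443, 1827 and 3095 CPM in WT. In all, 4 of 6 GLD2KO libraries lay below all WT libraries, and GLD2KO replicate 1 lay above all of them. The log2 fold change was -0.13 (95% interval -0.98 to 0.72, edgeR adjusted p = 0.982), -0.57 without GLD2KO replicate 1 and 0.09 without WT replicate 3. For miR-181d-5p the levels were 783, 1603 and 4842 CPM in GLD2KO, against 1307, 2105 and 2561 CPM in WT, and the highest value was that of GLD2KO replicate 4. Its log2 fold change was -0.06 (95% interval -0.96 to 0.85, edgeR adjusted p = 0.99), and between -0.56, without GLD2KO replicate 4, and 0.12, without GLD2KO replicate 5, when each library was left out in turn.

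The passenger strands with enough counts to test, miR-181a-1-3p and miR-181c-3p, had the highest fold changes of the tested members, with intervals that still held 0. The levels of miR-181a-1-3p were 119, 385 and 1127 CPM (lowest, median and highest) in GLD2KO, against 151, 284 and 383 CPM in WT. In all, 5 of 6 GLD2KO libraries lay above the WT median, and GLD2KO replicate 4 lay below all WT libraries. The log2 fold change was 0.79 (95% interval -0.16 to 1.75, edgeR adjusted p = 0.844), and between 0.36 and 1.03 without each library in turn. It was 0.36 without GLD2KO replicate 1. For miR-181c-3p the levels were 48.9, 143 and 365 CPM in GLD2KO, against 48.9, 119 and 168 CPM in WT. Its log2 fold change was 0.59 (95% interval -0.34 to 1.51, edgeR adjusted p = 0.978), and 0.25 without GLD2KO replicate 1.

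**Figure D2:**
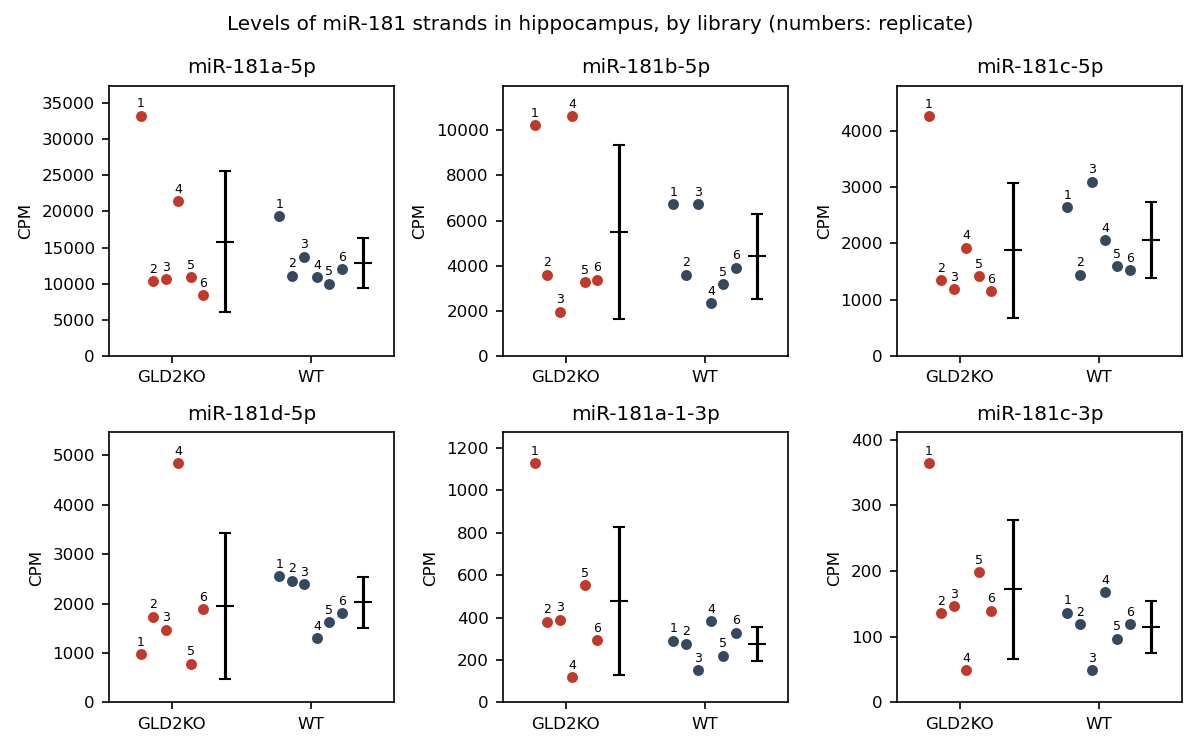
Each panel plots the CPM (vertical axis, linear from 0) of a tested member in the 6 GLD2KO and 6 WT libraries, with replicate numbers beside the points and the mean ± SD to the right of each group. GLD2KO replicate 1 is highest for miR-181a-5p (33250 CPM), miR-181c-5p, miR-181a-1-3p and miR-181c-3p, and GLD2KO replicate 4 is highest for miR-181b-5p and miR-181d-5p and lowest for miR-181a-1-3p.

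**Figure D3:**
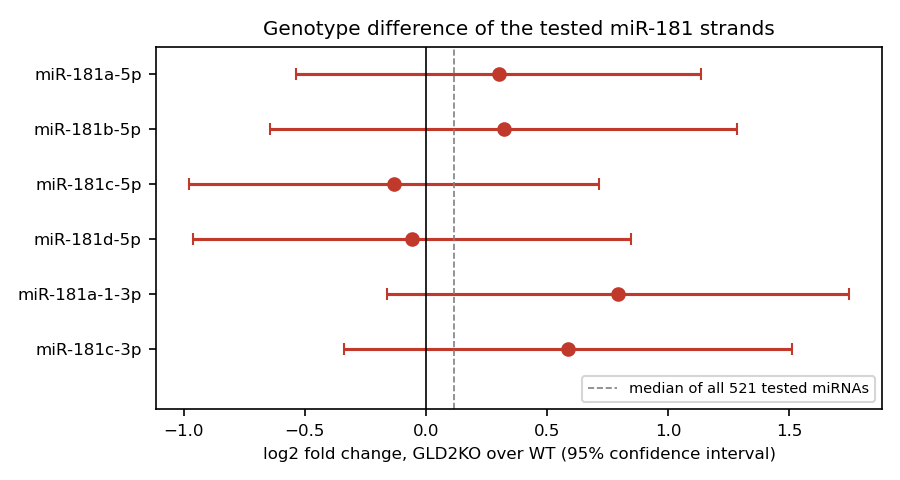
Points give the log2 fold change, GLD2KO over WT, of the 6 tested members with 95% confidence intervals from edgeR (horizontal axis), and the dashed line marks the median of all tested miRNAs, 0.12. Every interval holds 0.

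The remaining member, miR-181a-2-3p, was at the limit of detection. It had 0 counts in the 6 GLD2KO libraries, of 14917319 in all, and 2 counts in the 6 WT libraries, of 18603611, and so was not tested. A count of 0 over the GLD2KO libraries allows up to 0.201 CPM (3 counts, counting error only). Of the 12540 counts of the miR-181a passenger strands, 0.0159% came from chromosome 2 (95% Wilson interval 0.00437 to 0.0581%). The table also lists the passenger strands of the miR-181b hairpins, which are not among the 7 members. There 39 of 345 counts, 11.3%, came from chromosome 2 (95% Wilson interval 8.38 to 15.1%), and miR-181b-1-3p exceeded miR-181b-2-3p in 12 of 12 libraries. How the authors assigned reads that match several miRNAs is not given, and the intervals cover counting error only.

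The spread between libraries was far wider than the counting error of a library. With 1 library for each mouse, differences between mice and differences between library preparations cannot be told apart. In the library with the highest family share, GLD2KO replicate 1, the 7 members took 4.10% of counts (95% Wilson interval 4.07 to 4.12%), and in the library with the lowest, GLD2KO replicate 6, 1.50% (1.48 to 1.51%). The coefficient of variation of the 6 tested members ran from 61.4 to 75.9% among GLD2KO libraries and from 25.5 to 42.3% among WT libraries. The medians over all 521 tested miRNAs were 52.8% and 46.8%. Each member had its highest GLD2KO value in replicate 1 or 4, and a difference in spread between genotypes was not tested. Limits narrower than a 2-fold rise and a 2-fold fall were reached by 2 of the 6 members, miR-181c-5p and miR-181d-5p, and by 89 of all tested miRNAs. GLD2KO replicate 1 was also the library with the highest sum of the 2 endothelial markers, 9529 CPM. GLD2KO replicate 6 had the highest sums of choroid plexus and ciliated cell markers. WT replicate 3 had the highest sums for oligodendrocytes (40409 CPM), microglia and leukocytes (1650 CPM), and smooth muscle and pericytes (11866 CPM). By WT means the oligodendrocyte sum was mostly miR-338-3p (16272 of 18748 CPM), and the microglia and leukocyte sum mostly miR-150-5p (962 of 1317 CPM). Of the 3 oligodendrocyte markers, miR-219a-2-3p was higher in GLD2KO (1410 against 604 CPM, edgeR unadjusted p = 0.00728, adjusted p = 0.815) and the other 2 were lower. Neuronal markers were highest in WT replicate 1 and red blood cell markers in GLD2KO replicate 3. The part of other cell types in the family's levels was not tested.

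As a whole the family's share of counts did not differ between genotypes beyond the spread between libraries. For the 7 members summed, the lowest, median and highest shares were 1.50, 2.11 and 4.10% in GLD2KO, against 1.59, 2.03 and 2.60% in WT, a mean difference of 0.386 percentage points (two-sided exact permutation over 924 relabellings, p = 0.407, adjusted p = 0.42 over the 3 sums compared). Without GLD2KO replicate 1 that difference was 0.0616. For the guide strands summed the mean difference was 0.36 percentage points (exact permutation, adjusted p = 0.42). The passenger strands summed to 0.0663 ± 0.0372% in GLD2KO and 0.0395 ± 0.0155% in WT, a difference of 0.0268 (exact permutation p = 0.134, adjusted p = 0.403). That difference was 0.0374 without GLD2KO replicate 4 (unadjusted exact p = 0.0173, adjusted p = 0.052), and 0.0157 without GLD2KO replicate 1 (unadjusted exact p = 0.268, adjusted p = 0.805).

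The ratio of guide to passenger counts, which does not depend on the scaling of libraries, was lower in most GLD2KO libraries than in most WT libraries, and GLD2KO replicate 4 went far the other way. For the chromosome 8 hairpin Mir181c the ratio of miR-181c-5p to miR-181c-3p counts was 7.13 to 11.7 in 5 GLD2KO libraries and 39.4 in GLD2KO replicate 4, against 12.2 to 63.3 in WT libraries. Those 5 GLD2KO libraries lay below all 6 WT libraries. The mean log2 ratio was 3.51 ± 0.91 in GLD2KO and 4.20 ± 0.912 in WT, a difference of -0.69 (two-sided exact permutation p = 0.249, adjusted p = 0.498 over 6 ratios). For miR-181a-5p over miR-181a-1-3p the ratio of counts was 19.7 to 29.5 in the same 5 GLD2KO libraries and 180 in GLD2KO replicate 4, against 28.5 to 91.1 in WT libraries. With miR-181a-2-3p added to the passenger counts, the mean log2 ratio was 5.17 ± 1.15 in GLD2KO and 5.57 ± 0.611 in WT, a difference of -0.39 (exact permutation, adjusted p = 0.73).

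Both arm ratios turned on single libraries of either genotype. Without GLD2KO replicate 4 the difference was -1.05 for Mir181c and -0.86 for miR-181a, each with an adjusted exact permutation p of 0.039. Without WT replicate 3 it was -0.33 for Mir181c and -0.21 for miR-181a, each with an adjusted exact permutation p of 0.875, and without GLD2KO replicate 5 it was -0.22 for miR-181a (adjusted p = 0.939). Without both GLD2KO replicate 4 and WT replicate 3, each with the highest arm ratios of its genotype, the difference was -0.69 for Mir181c (adjusted p = 0.0476) and -0.67 for miR-181a (adjusted p = 0.0714). Leaving out that pair was chosen after the values were seen. The depth of GLD2KO replicate 4, 2689827 counts, lay within the range of the other libraries. Its TMM factor was 0.784, with 0.753 in WT replicate 3 and 0.816 in GLD2KO replicate 1. Over all libraries the factors ran from 0.747 in WT replicate 1 to 1.36 in GLD2KO replicate 3. The number of miRNAs detected was 828 in GLD2KO replicate 4, 762 in WT replicate 3 and 812 in GLD2KO replicate 1. The highest number was 937, in WT replicate 6. Why the passenger strands of GLD2KO replicate 4 were low was not tested.

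**Figure D4:**
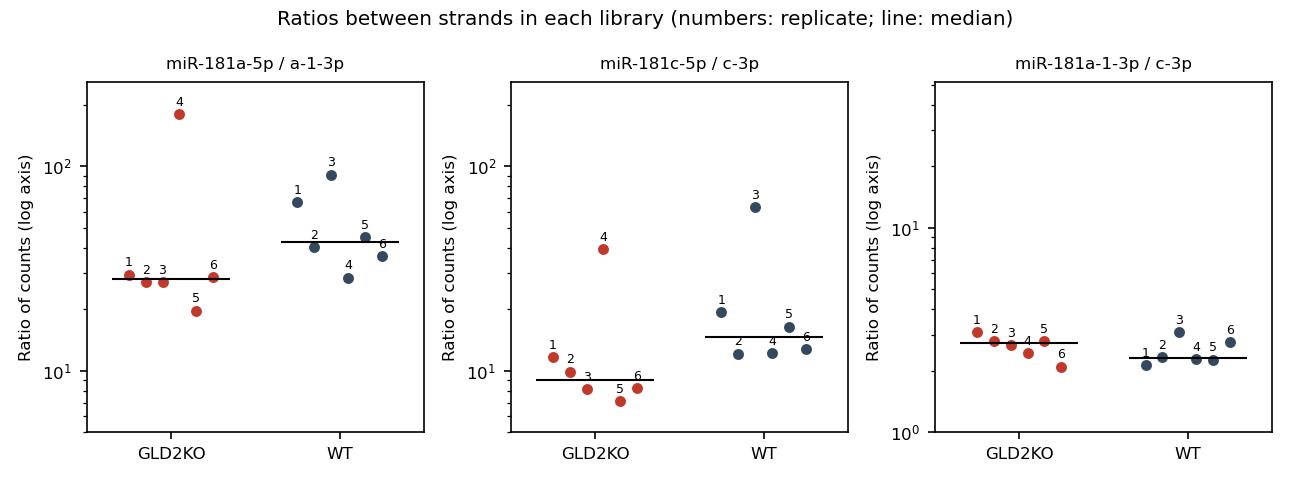
The 3 panels give, for each GLD2KO and WT library, the ratio of counts of miR-181a-5p to miR-181a-1-3p, of miR-181c-5p to miR-181c-3p and of miR-181a-1-3p to miR-181c-3p, on log axes with a line at the group median. GLD2KO replicate 4 stands at 180 and 39.4 in the arm ratios, far above the other GLD2KO libraries, whereas in the third panel all 12 libraries lie between 2.09 and 3.09.

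The other ratios within the family did not differ between genotypes beyond the spread between libraries. The mean log2 ratio of miR-181a-5p to miR-181b-5p was 1.62 ± 0.481 in GLD2KO and 1.61 ± 0.381 in WT, a difference of 0.0080 (exact permutation, adjusted p = 0.985). Between the clusters, the log2 ratio of miR-181a-5p plus miR-181b-5p to miR-181c-5p plus miR-181d-5p was 2.39 ± 0.401 in GLD2KO and 2.07 ± 0.181 in WT, a difference of 0.33 (exact permutation p = 0.106, adjusted p = 0.498). The log2 ratio of miR-181c-5p to miR-181d-5p, strands of neighbouring hairpins, was 0.042 ± 1.24 in GLD2KO and 0.0028 ± 0.494 in WT, a difference of 0.040 (exact permutation, adjusted p = 0.985). The log2 ratio of miR-181a-1-3p to miR-181a-2-3p differed by 0.84 (exact permutation, adjusted p = 0.498), and with 2 counts in its denominator it follows the counts of miR-181a-1-3p and the pseudocount.

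The closest tie within the family was between passenger strands of hairpins on different chromosomes. The ratio of miR-181a-1-3p to miR-181c-3p counts stayed between 2.09 and 3.09 over the 12 libraries, a 1.48-fold range, while the other 14 pairs of tested members had ranges of 2.51-fold or more. The log2 CPM of these strands had a Pearson r of 0.972 (permutation p = 1e-05, the smallest the 100000 resamples can give, adjusted p = 0.00015 over 15 pairs) and a Spearman rho of 0.937 (permutation p = 4e-05, adjusted p = 0.0006). The r was 0.935 without GLD2KO replicates 1 and 4, and within genotypes 0.989 in GLD2KO and 0.961 in WT. On library totals without TMM factors it was 0.979 (n = 12 libraries, permutation). These strands share their seed and differ at 2 of 22 bases.

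The guide strands miR-181a-5p and miR-181c-5p had lower correlations with their passenger strands over the 12 libraries. As miR-181a-5p can come from Mir181a-1 or Mir181a-2, only miR-181c-5p and miR-181c-3p are strands of 1 known hairpin. The r between miR-181a-5p and miR-181a-1-3p was 0.222 and the rho -0.105 (permutation, adjusted p = 0.78 for both), and between miR-181c-5p and miR-181c-3p the r was 0.092 and the rho -0.0979 (permutation, adjusted p = 0.831 and 0.78). These values depended on which libraries were left out. Without GLD2KO replicate 4 and WT replicate 3, a pair chosen after the values were seen, both r were higher. They were 0.697 for miR-181a-5p with miR-181a-1-3p and 0.671 for miR-181c-5p with miR-181c-3p (permutation, adjusted p = 0.0939 for both). The former r was -0.237 without GLD2KO replicates 1 and 4, -0.0871 within WT and 0.243 within GLD2KO. The latter r was -0.232 without GLD2KO replicate 1 and WT replicate 3, -0.452 within WT and 0.423 within GLD2KO. The neighbouring miR-181c-5p and miR-181d-5p had an r of 0.0025 and a rho of 0.0979 (permutation, adjusted p = 0.994 and 0.78), and a ratio of counts between 0.398 and 4.36, an 11-fold range.

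Among guide strands, miR-181a-5p varied with miR-181b-5p at an r of 0.859 and a rho of 0.776 (permutation, p = 0.00033 and 0.00399, adjusted p = 0.00247 and 0.015). With miR-181c-5p, which differs from it by an edit distance of 1 but lies on another chromosome, the r was 0.829 and the rho 0.79 (permutation, p = 0.00192 and 0.00348, adjusted p = 0.0072 and 0.015). Without GLD2KO replicates 1 and 4 these r were 0.706 and 0.782. The pair of miR-181b-5p and miR-181c-5p had an r of 0.734 (permutation p = 0.00743, adjusted p = 0.0186), a rho of 0.573 (permutation p = 0.0548, adjusted p = 0.137) and an r of 0.706 without the same libraries.

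The fourth guide strand, miR-181d-5p, ran against the passenger strands. Its r was -0.843 with miR-181a-1-3p (permutation p = 0.00122, adjusted p = 0.0061; rho -0.839, permutation p = 0.00106, adjusted p = 0.00795) and -0.803 with miR-181c-3p (permutation p = 0.0027, adjusted p = 0.0081; rho -0.762, permutation p = 0.00598, adjusted p = 0.0179). Without GLD2KO replicates 4 and 5 these were -0.795 and -0.735. Within genotypes the r with miR-181a-1-3p was -0.908 in GLD2KO and -0.472 in WT. On library totals without TMM factors, 5 of the 6 pairs past the threshold no longer passed, the exception being miR-181a-1-3p with miR-181c-3p, and the r of miR-181a-5p was then 0.704 with miR-181b-5p and 0.673 with miR-181c-5p. All CPM of a library share its scaling.

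**Figure D5:**
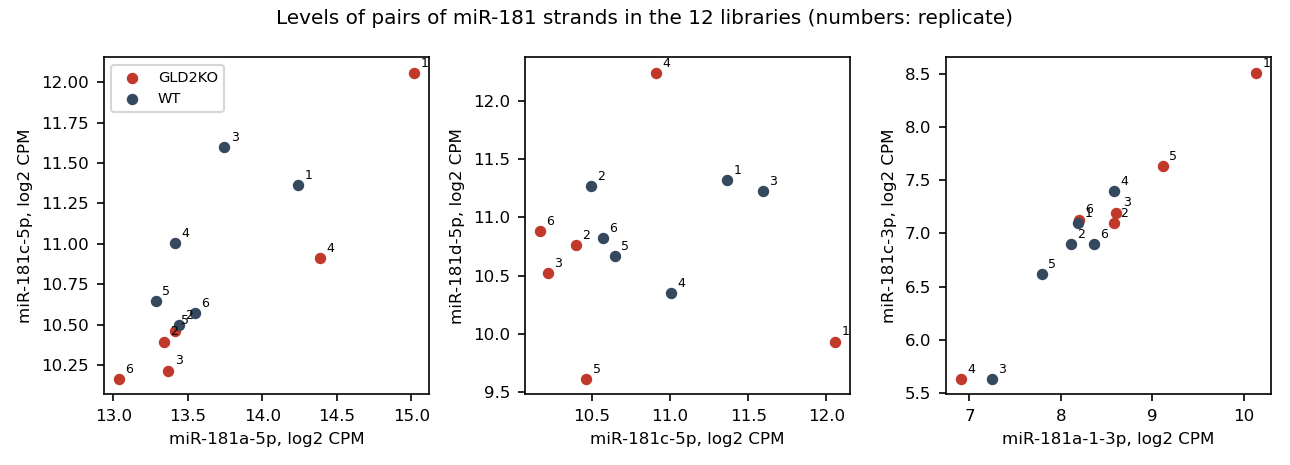
Each panel plots the log2 CPM of 1 member against another in the 12 libraries, colored by genotype and numbered by replicate. Points for miR-181a-1-3p and miR-181c-3p follow a line (r = 0.972), those for miR-181a-5p and miR-181c-5p follow one more loosely (r = 0.829), and those for miR-181c-5p and miR-181d-5p do not.

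Over the 12 libraries the miRNAs most like miR-181a-5p, of 219 others with a mean of at least 100 CPM, were miR-369-3p, miR-361-3p, miR-21a-5p, miR-9-5p and miR-382-3p, with a Spearman rho of 0.839, 0.825, 0.818, 0.811 and 0.783. For the summed family they were miR-9-3p (0.839), miR-369-3p (0.832), miR-195a-5p (0.825), miR-21a-5p (0.804) and miR-322-5p (0.804). Of these, miR-9 is a miRNA of neural progenitors and neurons, and miR-369 and miR-382 come from the imprinted Dlk1-Dio3 locus. The rho describe likeness between libraries that share their scaling, and the genotypes are pooled in them.

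Other miRNAs with a described role at synapses also gave no call. Of the 24 on that list, 24 were tested and 0 passed in edgeR, with 0 at an unadjusted p under 0.05, 10 above and 14 below 0 and a median log2 fold change of -0.05. The most abundant were the neuronal miR-124-3p at 98413 ± 21711 CPM in GLD2KO and 130905 ± 76640 CPM in WT, miR-9-5p at 62499 ± 41195 and 52072 ± 21025 CPM, miR-29a-3p at 50326 ± 29322 and 48472 ± 13897 CPM, and miR-125b-5p at 39273 ± 11967 and 40262 ± 13451 CPM (SD, n = 6 each). The level of miR-181a-5p, at 15829 CPM in GLD2KO and 12857 CPM in WT, lay below all 4.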

How the data were processed

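The authors deposited 1 table of raw counts, a whole number for each mature miRNA in each library. Per the labels' protocols, TRIzol RNA was size-selected on a gel, in a range the sources state in 2 ways, and barcoded libraries were sequenced on an Illumina instrument. The tools Trimmomatic 0.32 and cutadapt 1.3 and the build GRCm38 are listed in the submitters' processing notes, without order. Which aligner and counter were used, and how reads shared between miRNAs were treated, is not given in the sources used here, so near-identical strands are uncertain as single values.

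A row naming no miRNA, with 0 counts, was left out. Counts were fitted with edgeR 4.0.16 in R 4.3.3 (TMM, filterByExpr, quasi-likelihood test) over all 521 miRNAs that passed the filter. Standard errors and intervals came from the same model. The fit was also run on counts simulated with its own dispersions. That run checks the code and does not model whole libraries that stand apart. Log2 CPM used a prior count of 2 and log2 ratios a pseudocount of 0.5. Shares and ratios were compared by two-sided exact permutation, and correlations by 100000 permutations (scipy 1.17.1).

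Groups came from sample titles and columns were matched by name. The named miRNAs were the members, other strands of their hairpins, neighbours in abundance, the 5 most alike, and the most abundant of the synaptic list. Members and lists were chosen with earlier results of these data known. Alternatives were other scalings, filters and tools (DESeq2 1.42.0, limma-voom with limma 3.58.1), a replicate block, and leaving out libraries.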

Additional observations from a re-analysis of the deposited data

Results flagged for a closer look

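Values of a single library that stood apart from the rest of its genotype were looked for in 32 sets of 6 libraries. They were found in 6 sets. A rate of 1 in 20 would give 1.6 sets, but the sets share libraries and strands, so no excess over chance can be read from the count. GLD2KO replicate 4 gave 3 of the 6. Its miR-181d-5p level was 4842 CPM, with 783 to 1889 CPM elsewhere in GLD2KO. Its log2 ratio of miR-181a-5p to the miR-181a passenger strands was 7.49, with 4.30 to 4.88 elsewhere in GLD2KO, and its log2 ratio of miR-181c-5p to miR-181c-3p was 5.29, with 2.83 to 3.55 elsewhere in GLD2KO. That last ratio was 5.98 in WT replicate 3, with 3.60 to 4.27 elsewhere in WT. The level of miR-181c-5p was 4263 CPM in GLD2KO replicate 1, with 1148 to 1926 CPM elsewhere in GLD2KO. The level of miR-181b-1-3p was 1.31 CPM in GLD2KO replicate 6, from 3 counts, with 11.1 to 15.2 CPM elsewhere in GLD2KO. The cause of these values was not tested.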

How the results depend on the processing

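Over all tested miRNAs edgeR called 7 of 1325 with no low-count filter, none of them a member, and 0 under every other alternative run; 85 then had an unadjusted p under 0.05. No member passed under any alternative. Without each library in turn the log2 fold change ran from -0.070 to 0.46 for miR-181a-5p, from -0.57 to 0.090 for miR-181c-5p and from -0.56 to 0.12 for miR-181d-5p. It was 0.021 for miR-181d-5p with upper-quartile factors, and 0.079 for miR-181c-5p without GLD2KO replicate 4 and WT replicate 3. In the same way the difference in log2 ratio ran from -0.15 to 0.13 for miR-181a-5p over miR-181b-5p, from -0.38 to 0.31 for miR-181c-5p over miR-181d-5p (0.39 without GLD2KO replicate 4 and WT replicate 3), from -0.86 to -0.21 for miR-181a-5p over its passenger strands and from -1.05 to -0.33 for miR-181c-5p over miR-181c-3p, which was -0.69 without both libraries. On library totals the correlations that no longer passed were 0.704 (miR-181a-5p with miR-181b-5p), 0.673 (miR-181a-5p with miR-181c-5p), 0.457 (miR-181b-5p with miR-181c-5p), -0.671 (miR-181d-5p with miR-181a-1-3p) and -0.629 (miR-181d-5p with miR-181c-3p), and those that changed sign were -0.174 (miR-181a-5p with miR-181d-5p) and -0.502 (miR-181c-5p with miR-181d-5p). With deviations from the genotype mean miR-181c-5p with miR-181d-5p was at -0.047. Without GLD2KO replicate 4 and WT replicate 3 the values were -0.698 (miR-181d-5p with miR-181c-3p, no longer past the threshold), -0.205 and -0.0020 (miR-181d-5p with miR-181a-5p and miR-181b-5p), 0.501 and 0.538 (miR-181b-5p with miR-181a-1-3p and miR-181c-3p) and -0.213 (miR-181c-5p with miR-181d-5p). The cause was not tested. Replicate numbers gave no pairing, as the correlations of same-numbered libraries ran from -0.232 to 0.241, within the -0.276 to 0.299 of other pairings. The replicate block changed no call, with 0 miRNAs called. With that block the log2 fold change was 0.15 for miR-181a-5p and 0.59 for miR-181a-1-3p. Depth limits miR-181a-2-3p and the miR-181b passenger strands.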

Other observations

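The miRNAs most like the other members over the 12 libraries were looked up after the values were seen. For miR-181d-5p they were let-7e-5p, miR-24-3p and let-7g-5p, with a Spearman rho of 0.874, 0.727 and 0.706. For miR-181c-5p they were miR-369-3p, miR-21a-5p and miR-23a-3p (0.944, 0.93 and 0.93), and for miR-181b-5p they were miR-9-3p, miR-195a-5p and miR-29a-3p (0.846, 0.804 and 0.776). For both miR-181a-1-3p and miR-181c-3p the first was miR-127-3p, an imprinted miRNA of the Dlk1-Dio3 locus (0.804 and 0.839).

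Of the passenger strands outside the 7 members only miR-181b-1-3p had enough counts to test. Its level was 11.4 ± 5.20 CPM in GLD2KO and 7.41 ± 3.40 CPM in WT (SD, n = 6 each), a log2 fold change of 0.64 (95% interval -0.37 to 1.65, edgeR adjusted p = 0.978). The passenger strand of Mir181d had 32 counts in GLD2KO libraries and 37 counts in WT libraries.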
